A study of Mus musculus with 40 samples.

Results

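Cytoplasmic ribosomal proteins are the proteins that, with ribosomal RNA, build the small and the large subunit of the ribosome. Their transcripts were followed in mouse oocytes through 5 stages of follicle growth. Members were all probe sets of the 430A and 430B arrays whose only platform gene symbol begins with Rpl, Rps, Rpsa or Rplp in the form used for ribosomal proteins, without Rps6k kinases and pseudogene symbols. The rule found 50 of 18193 genes, read by 106 of the 45037 probe sets, 100 of them on 430A and 6 on 430B. By symbol 23 of them belong to the small subunit and 26 to the large one. The remaining gene, Rps19bp1, codes for a protein named for binding Rps19 and is no ribosomal protein. Its values are given apart and counts by subunit leave it out, but counts over the 47 tested genes include it. A further 102 probe sets of 430A and 8 of 430B list a ribosomal symbol beside other symbols and fall outside the rule, and Rpl3, Rpl5, Rpl10, Rpl24, Rplp1 and Rps27a were reached only by such probe sets.

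All samples were oocytes of SJLB6 female mice, with no treatment named in the labels. Oocytes of primordial follicles came from mice aged 2 days, of primary follicles from 6 days, of secondary follicles from 12 days, of small antral follicles from 17 days and of large antral follicles from 24 days. A sample pooled 400, 90, 60, 30 and 20 oocytes at these stages, and 4 biological replicates per stage went on each of 2 array types, 40 samples in all. Age and pool size changed with every stage, so stage, age and pool size cannot be told apart. In 3 small antral samples on 430B the protocol text carries the mouse age and pool size that belong to secondary follicles, and the title's stage was kept. The labels do not say which animals a replicate came from, so p-values measure the spread between these samples.

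A ribosome of the cytoplasm holds a single copy of nearly every ribosomal protein, and cells make these proteins in matched amounts. Many of their mRNAs start with a short run of pyrimidines, the terminal oligopyrimidine tract, through which growth signals raise or lower their translation. A growing oocyte enlarges greatly and lays up ribosomes that serve the embryo before it makes its own. Array signals are relative levels within a fixed total: less of a transcript per oocyte and more of all other RNA cannot be told apart, nor can fewer cells of a type and less RNA per cell. Signals below are scaled to a trimmed mean of 500 per array, and log2 values were taken after adding 32. Levels of different probe sets are not on 1 scale, so each is compared with itself across stages.

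Annotated start sites of 43 of the 49 ribosomal protein genes were found in RefSeq (build GRCm38.p6). For 8 of them the bases from 25 before to 20 after an annotated start are printed, in the direction of transcription. Capitals mark the longest run of C and T in the window, which need not be the terminal tract. In Rps28, Rpl4, Rpl27 and Rplp0 this run began at -21, -18, -7 and 12 relative to the start and did not cover it. The 8 genes were chosen after their array values were seen: Rpl27a, Rpl35, Rps18, Rps9 and Rps28 stood above the primary stage in each primordial array, and Rpl4, Rpl27 and Rplp0 did not.
Rpl27a: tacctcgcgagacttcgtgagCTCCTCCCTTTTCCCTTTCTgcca
Rpl35: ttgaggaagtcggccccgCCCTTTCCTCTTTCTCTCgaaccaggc
Rps18: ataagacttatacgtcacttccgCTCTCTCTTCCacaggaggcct
Rps9: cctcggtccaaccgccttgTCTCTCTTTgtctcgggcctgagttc
Rps28: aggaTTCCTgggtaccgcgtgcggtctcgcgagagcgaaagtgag
Rpl4: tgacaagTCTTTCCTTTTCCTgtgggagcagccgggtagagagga
Rpl27: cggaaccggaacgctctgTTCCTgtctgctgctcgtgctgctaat
Rplp0: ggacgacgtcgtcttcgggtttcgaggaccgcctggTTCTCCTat

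These windows lie at chr7:109519170-109519214 on the plus strand for Rpl27a, chr2:39005112-39005156 on the minus strand for Rpl35, chr17:33955646-33955690 on the minus strand for Rps18, chr7:3704016-3704060 on the plus strand for Rps9 and chr17:33824543-33824587 on the minus strand for Rps28. Those of Rpl4, Rpl27 and Rplp0 lie on the plus strand at chr9:64173362-64173406, chr11:101442220-101442264 and chr5:115559442-115559486. The longest run in such a window had a median of 7 bases over the 43 genes and of 5 over all 27025 genes of the table. It reached 8 bases in 48.8% of the ribosomal protein genes and in 20.6% of all genes. The letters CTTTC on the sense strand, within 50 bases on each side of the start, were held by 46.5% of the ribosomal protein genes and 14.6% of all, and on either strand by 60.5% and 26.2%. The letters CCGGAAG, on either strand of the 300 bases around the start, were held by 48.8% and 9.93%, and AAGATGGC by 9.3% and 3.19%. CTTTC can lie inside a pyrimidine run, so these counts overlap. A match is only a match of letters in these windows.

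In the growing stages the median ribosomal protein signal of an array moved little, and in primordial oocytes it differed widely from array to array. Over 22 small-subunit genes on 430A the median log2 level was 11.60 ± 0.21 at the primary stage (SD, n = 4), 11.30 ± 0.14 at the secondary, 11.38 ± 0.17 at the small antral and 11.38 ± 0.15 at the large antral stage. Over 26 large-subunit genes it was 11.58 ± 0.15, 11.40 ± 0.09, 11.41 ± 0.16 and 11.43 ± 0.11. Among the 4 primordial arrays it was 13.60, 12.29, 12.71 and 11.48 for the small subunit and 12.98, 11.41, 12.01 and 10.37 for the large. Array 1 was the highest and array 4 the lowest for both subunits. Set against the primary mean of the same tested gene, the median over 22 small-subunit genes was 1.29, 0.64, 0.91 and 0.29 higher in arrays 1 to 4, and the median over 24 large-subunit genes differed by 1.32, 0.12, 0.52 and -0.32.

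**Figure D1:**
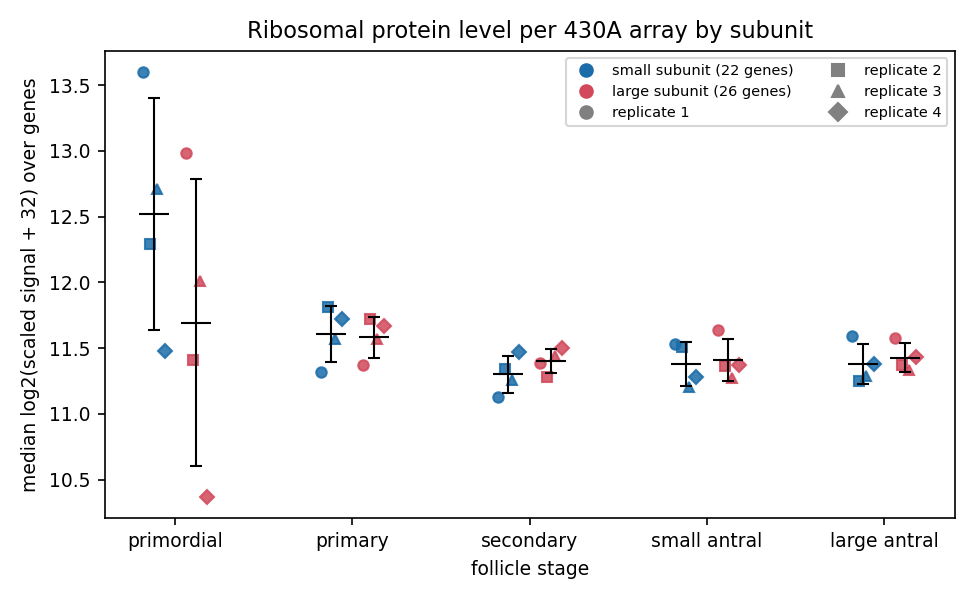
Median log2(scaled signal + 32) over ribosomal protein genes in each 430A array (y axis) by follicle stage (x axis), with the small subunit in blue and the large in red. Marker shapes are replicates, and black bars are the mean and SD of 4 arrays. The primordial arrays spread from 11.48 to 13.6 for the small subunit and from 10.37 to 12.98 for the large, and the 16 later arrays lie between 11.13 and 11.81.

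The primordial values need a word on how they were read. The deposited primordial columns 2 to 4 have the form of means with column 1, as inferred from the values and not stated in the labels, so each was unmixed as 2 times its value minus column 1. Unmixing left 0 negative values among the 22526 usable 430A probe sets, and 0 among the 22411 of 430B. Control probe sets were not in this count, and a Gapdh control of array 3 was not positive after unmixing. The same operation on other stages gave between 1120 and 2857 negative values on 430A and between 1989 and 3790 on 430B. Column 1 was thus used to compute all 3 other unmixed arrays. If the inferred form holds, its signal cancels out of them, and if not, part of it stays.

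Each unmixed primordial array was then set beside the 4 primary arrays, as a description. In array 1, 44 of 47 measured genes stood above all 4 primary arrays, where 35.4% of all 14863 genes did. In array 2 there were 30 (38% of all genes), in array 3 there were 36 (36%) and in array 4 there were 20 (41.2%). Below all 4 primary arrays stood 2, 11, 6 and 22 genes in arrays 1 to 4, beside 36.3%, 37.9%, 38.2% and 37.4% of all genes. The median difference from the primary mean was 1.31, 0.27, 0.80 and -0.10 on the log2 scale, and over all genes it lay between -0.01 and 0.06. In arrays 1, 2 and 3 the share of member genes above the primary arrays was thus larger than that of all genes, least so in array 2. In array 4 about as many member genes lay below the primary arrays as above them. The range over the 4 primordial arrays had a median of 1.30 log2 units over the member genes and 1.03 over all genes, while over the primary arrays it was 0.31 and 0.47.

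**Figure D2:**
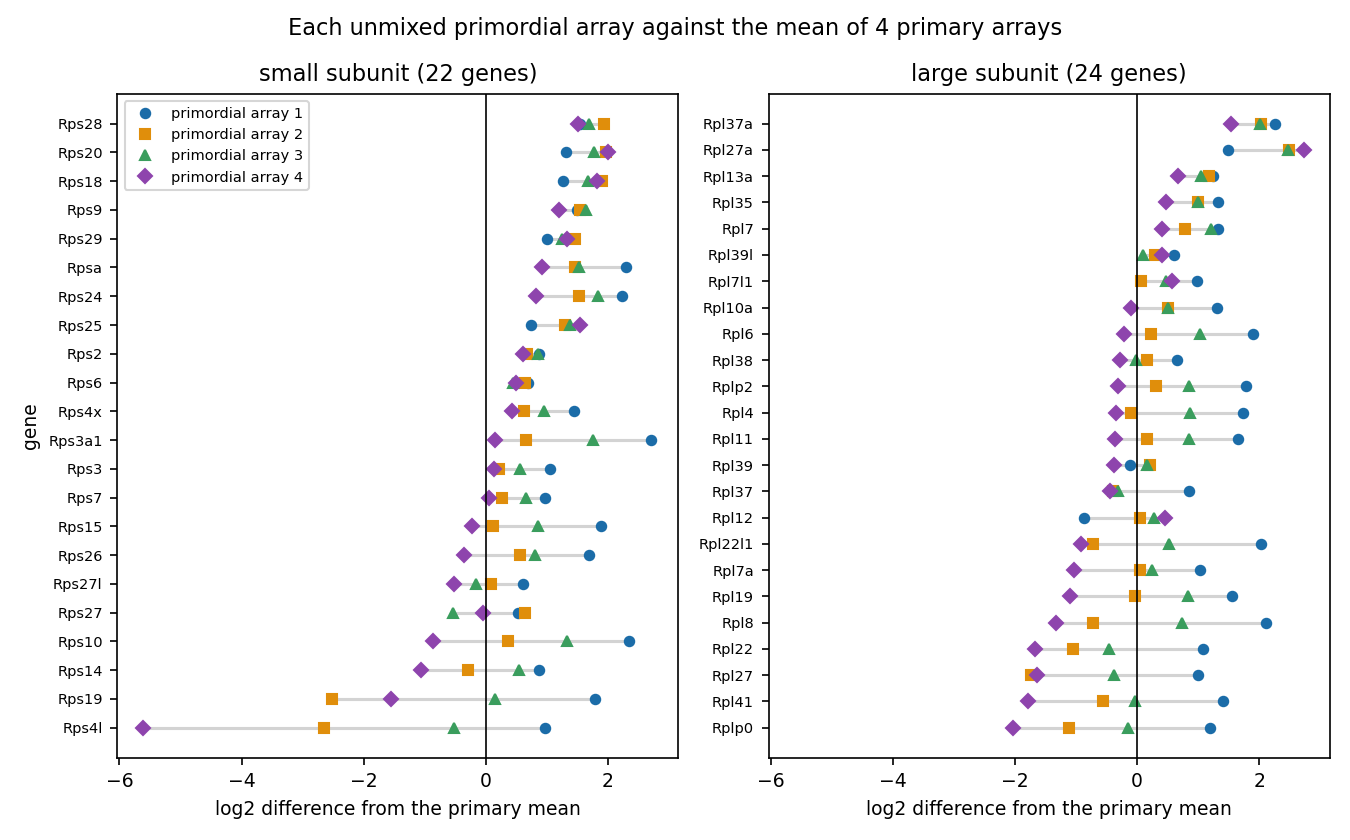
Log2 difference of each unmixed primordial array from the mean of the 4 primary arrays (x axis) for the 22 small-subunit and 24 large-subunit genes tested (y axis), sorted by the lowest array. Colours and shapes are the primordial arrays, and grey lines join the 4 values of a gene. At the top of each panel lie genes such as Rps28, Rps20, Rpl37a and Rpl27a with all 4 arrays at least 1.31 above the primary mean, and at the bottom Rps4l, Rps19 and Rplp0 with arrays on both sides of 0.

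In all 4 primordial arrays 17 of the 47 genes stood above every primary array, beside 14.9% of all genes, and 0 stood below every primary array in all 4, beside 18.9%. They were 12 of 22 small-subunit and 5 of 24 large-subunit genes. The small-subunit genes were Rps2, Rps3a1, Rps4x, Rps6, Rps9, Rps18, Rps20, Rps24, Rps25, Rps28, Rps29 and Rpsa, and the large-subunit genes were Rpl7, Rpl13a, Rpl27a, Rpl35 and Rpl37a. Each was read by its brightest 430A probe set, and some had another tested probe set that did not stay above primary. In primordial arrays 2 and 4, 1416243_a_at of Rpl35 read 723.4 and 410.2 against 1813.9 to 2728 in the primary arrays. In array 4, 1426163_x_at of Rpl7 read 935.1 against 980.8 to 1070.9. Rps9, Rps18, Rpl13a and Rpl37a also had such a probe set, while those of Rps28 and Rps29 all stayed above. Of these 17 genes 11 were read by a probe set with the suffix _x_, which marks probes shared with other transcripts, against 6 of the other 30. An annotated start was at hand for 14 of the 17 and for 26 of 29 others without Rps19bp1. A pyrimidine run of at least 8 bases was found in 8 of the 14 and 12 of the 26, CTTTC in 4 and 16, and CCGGAAG on either strand in 8 and 13. Among the 8 printed genes, chosen after their values were seen, the high ones had both long runs (Rpl27a) and short runs (Rps28). So did those that did not stand above primary in all arrays (Rpl4 and Rpl27). Whether a run or these letters go with the level was not tested.

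Rps28, a small-subunit protein, had scaled signals of 23668.5, 30902.9, 26212.8 and 22978.3 in the primordial arrays and of 7653.8, 8442.1, 7089.5 and 9216.4 in the primary arrays. The groups did not overlap, and Rps28 fell from primordial to primary by 1.67 ± 0.12 on the log2 scale (SE; limma adjusted p = 3.9e-10, 4 arrays a stage). Its other tested probe sets fell by 1.82 ± 0.12 and 1.69 ± 0.14. Rps20, a protein of the small subunit's head, had 12369.9, 19592.4, 17116 and 20056.2 against 4148, 5587.4, 4915.3 and 5332.8, with array 1 the lowest of the primordial arrays. It fell by 1.77 ± 0.14 (limma adjusted p = 1.1e-09). A probe set of Rps20 without a suffix read 31.1 to 141.1 in the primordial arrays and gave -0.39 ± 0.34 (limma adjusted p = 0.36).

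Rps18, which lies at the contact between the subunits, had 18185.5, 28268.9, 24175.1 and 26626.9 in the primordial arrays against 6946.2 to 8174.9 in the primary arrays. It fell by 1.67 ± 0.15 (limma adjusted p = 8.4e-09). Its other tested probe sets overlapped between the stages, and 1 fell by 0.66 ± 0.23 (limma adjusted p = 0.022) while the other gave 0.07 ± 0.48 (limma adjusted p = 0.92). Rpsa, the ribosomal protein first known as a laminin receptor, had 16045.4, 8990.4, 9422.3 and 6121.3 against 2915.2, 3484.7, 3047.7 and 3513.8. All primordial arrays were high and array 1 the highest, and Rpsa fell by 1.56 ± 0.21 (limma adjusted p = 2e-06). Rps24, one of the small-subunit genes mutated in Diamond-Blackfan anaemia, fell by 1.60 ± 0.21 (limma adjusted p = 1.7e-06), and its probe set without a suffix gave -0.01 (limma adjusted p = 0.98).

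In the large subunit Rpl27a had 478.7, 979.8, 975.7 and 1177.7 in the primordial arrays and 130.5, 180.5, 122.4 and 169.4 in the primary arrays. Its probe set carries no suffix, and its fall of 2.30 ± 0.22 (limma adjusted p = 2.6e-08) was the largest of the 47 genes. Rpl37a had 10615.2, 9029, 8984.5 and 6449.8 against 1784.3 to 2482.3 by its brightest probe set, and fell by 1.96 ± 0.15 (limma adjusted p = 1.1e-09). The dimmest tested probe set of Rpl37a, by contrast, rose by 0.74 ± 0.29 (limma adjusted p = 0.042), with groups that overlap, so the gene was called in both directions. Rpl13a, a component that is also released from the ribosome in macrophages, fell by 1.03 ± 0.13 (limma adjusted p = 7.6e-07), and its primordial signals of 4752 to 7086.8 all lay above the primary ones of 2784.9 to 3197.2. Of its 3 other probe sets, 2 fell by 0.89 ± 0.16 and 0.86 ± 0.12 and the other gave 0.34 ± 0.40 (limma adjusted p = 0.51).

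Other genes were high in primordial array 1 and low in arrays 2 and 4. Rplp0, the core of the stalk that recruits elongation factors, had 7960, 1578.7, 3118.3 and 827.6 in the primordial arrays against 2985.3 to 3795.2 in the primary arrays. The groups overlapped, and the change was 0.53 ± 0.39 (limma adjusted p = 0.28). Rps19, whose mutation is the commonest known cause of Diamond-Blackfan anaemia, had 3860.2, 163, 1218.3 and 353.1 against 1028.9 to 1126.6, with a change of 0.53 ± 0.52 (limma adjusted p = 0.42). Rpl41, the smallest ribosomal protein, had 9943.7, 2519.3, 3622.4 and 1057.4 against 3290.9 to 4198.3 and gave 0.24 ± 0.37 (limma adjusted p = 0.62).

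Rps4l, a copy of Rps4x, had the widest spread: 3979.3, 293.2, 1382.7 and 9.5 in the primordial arrays beside 1884.8, 2055.1, 2056.8 and 2023.1 in the primary arrays. It was called as a rise of 1.95 ± 0.78 (limma adjusted p = 0.042), although array 1 lies above every primary array. The call was lost without primordial replicate 2 or 4 or without any 1 of the primary replicates (adjusted p from 0.066 to 0.21). With arrays 1 and 3 alone, an alternative added after seeing the data, the change was -0.23, and with the columns as deposited -0.35.

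Probe sets of the same gene also parted ways in these arrays. For 20 genes with several tested probe sets on 430A, the spread between probe sets was taken as the range of their log2 differences from their own primary means. Its median over genes was 0.89, 1.64, 0.84 and 1.66 in primordial arrays 1 to 4, and between 0.20 and 0.49 in the secondary and antral arrays. Rps9 had the widest spread, 5.74 in array 2 and 5.91 in array 4. Its probe set 1434624_x_at read 2784.5, 2864.9, 3086.8 and 2241.8, all above the primary values of 806.4 to 1311.5, while 1433689_s_at read 4727.9, 49.4, 1272.1 and 24.7 beside 1247.6 to 1583.8. The first fell by 1.47 ± 0.19 (limma adjusted p = 1.8e-06), and the second gave 1.86 ± 0.84 (limma adjusted p = 0.072).

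Rps10 shows the same split among 5 tested probe sets. In primordial array 4 they read 36.2 and 2413.5 at 1416719_a_at and 1434854_a_at, which in the primary arrays read 1212.2 to 1544 and 1618 to 2266. The 3 tested probe sets of Rps28, in contrast, lay within 0.02, 0.28, 0.12 and 0.40 of each other in arrays 1 to 4. Genes called in both directions from primordial to primary were Rpl37a and Rpl7l1 on 430A. The brightest 430A probe set of Rpl7l1 gave -0.525 and the other 0.67. Rpl22 was called in both directions between its 430A probe set 1448398_s_at (0.84 ± 0.21) and its 430B probe set 1453118_s_at (-0.91 ± 0.14).

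**Figure D3:**
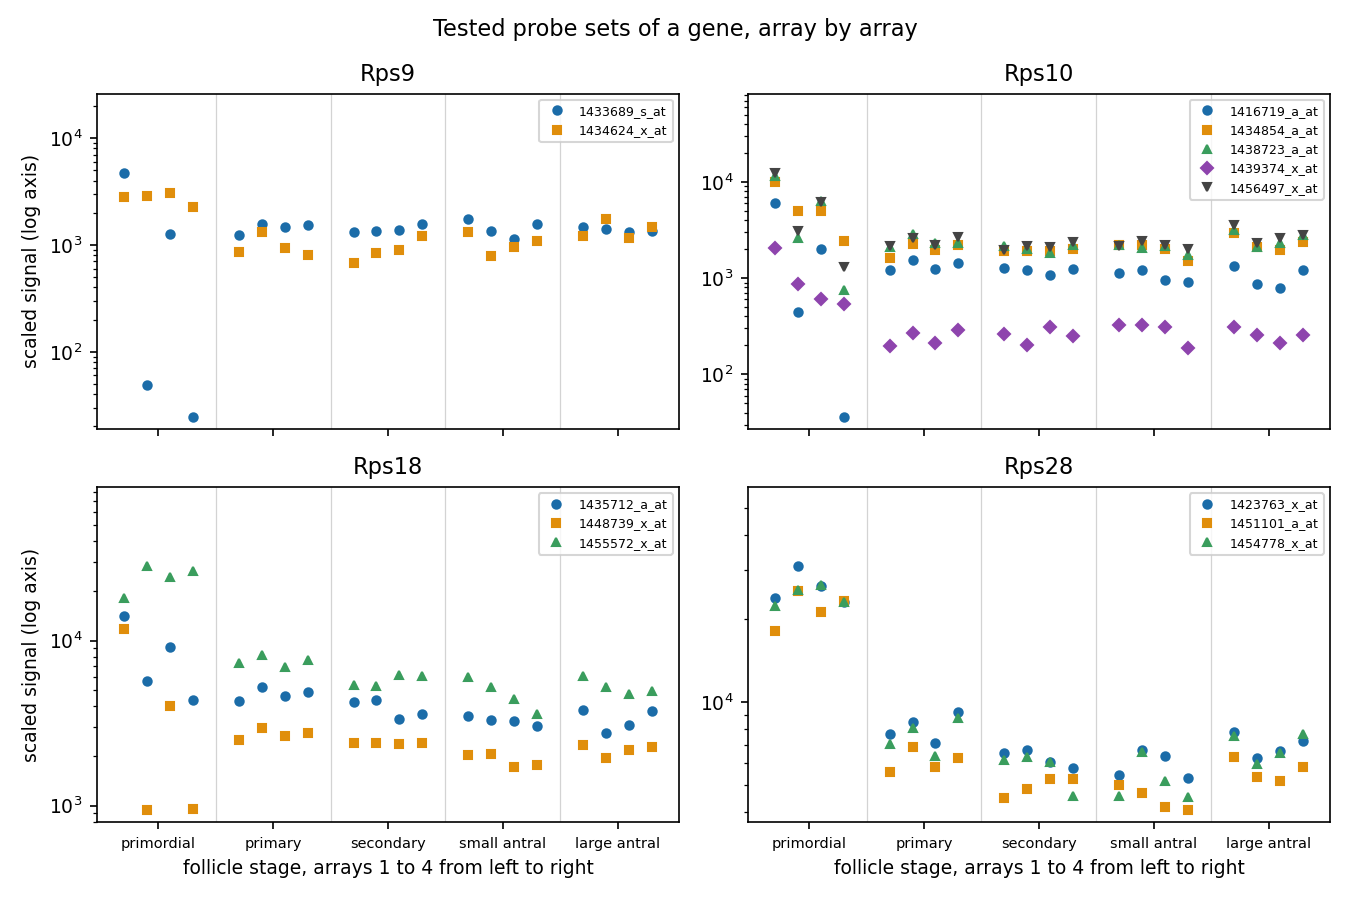
Scaled signal on a log axis (y) of every tested 430A probe set of Rps9, Rps10, Rps18 and Rps28 in the 20 arrays, 4 per follicle stage (x). Each colour and shape is a probe set. In primordial arrays 2 and 4 the probe sets of Rps9, Rps10 and Rps18 lie far apart, with 49.4 and 24.7 for 1433689_s_at of Rps9, while those of Rps28 stay together.

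Of the control probe sets, the Actb ratio set primordial arrays 2 and 4 apart, and the Gapdh ratio and the 18S control did not. The log2 ratio of the 3′ to the 5′ Actb control was 1.77, 5.94, 3.03 and 6.24 in primordial arrays 1 to 4 and 2.28 to 4.16 in the secondary and antral arrays, with no values for the primary arrays. The Gapdh ratio was 1.79, 1.61 and 1.65 in primordial arrays 1, 2 and 4 and 2.26 to 3.16 later. In primordial array 3 the unmixed 5′ Gapdh signal was not positive, so no ratio could be taken. The 3′ control of 18S ribosomal RNA read 12245.6, 21802.3, 18996.8 and 17925.3 against 1293.1 to 2074.5 later. All 11 oocyte markers had a median signal of at least 100 at every stage, with summed signals of 59081.7, 94041.1, 73829.9 and 84557.8 in the primordial arrays and 88036.4 to 138131.3 later. Over 10 markers of theca, stroma and fibroblasts, 5 of which reached a median of 100 in the primordial arrays, the sum was 1401.9 to 2720 there and 851.3 to 1465.7 later. Over 6 measured blood and immune markers, 3 of them at 100 or more, it was 548.7 to 1662.3 and 517.1 to 963.6. Over 13 granulosa markers, 5 of them at 100 or more, it was 2702.2 to 2929.9 and 3400.5 to 4641.6. Of the granulosa sum Foxl2 alone gave 1149.3 to 1761.4 in the primordial arrays and 1388.7 to 2861.4 later. The 6 surface epithelium markers, 1 of them at 100 or more, summed to 282.1 to 1172.1 and 226.1 to 1103.6. The 5 endothelial ones, 3 of them at 100 or more, summed to 457.7 to 874.2 and 483.5 to 1001.5. These counts of markers at 100 or more are for the primordial arrays. At later stages they were 3 to 4, 2 to 3, 6 to 8, 1 to 2 and 2 to 4 in the same order of cell types. The part of RNA quality or of other cells in the ribosomal protein values was not tested.

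From primordial to primary oocytes 25 of the 47 tested genes fell and 2 rose, where 18.3% of all 14863 tested genes fell and 23.8% rose (limma on 20 arrays, adjusted p under 0.05). The 2 that rose were Rps4l and Rps19bp1. The median change was -0.56 over the 47 genes and -0.02 over all genes. The small subunit had 15 of 22 genes that fell and 1 that rose, with a median of -0.78, and the large subunit 10 of 24 that fell and 0 that rose, with a median of -0.34. At an unadjusted p under 0.05 the large subunit had 11 genes in either direction. Of 87 tested 430A probe sets of member genes 44 fell and 5 rose, beside 25% and 24.6% of all 430A probe sets, and of 5 on 430B 2 fell and 1 rose, beside 12.1% and 10.2%. The difference between the subunits was not tested. Besides the genes above, Rps2 of the small subunit's mRNA entrance fell by 0.76 ± 0.10 (limma adjusted p = 9.9e-07), with 19686.8 to 23514.5 against 12112 to 13830.9. Rps6, the target of the S6 kinases, fell by 0.57 ± 0.14 (limma adjusted p = 0.0014), Rps4x by 0.87 ± 0.17 (0.00023) and Rps25 by 1.25 ± 0.22 (8.3e-05). Rps26 and Rplp2 fell by 0.67 ± 0.26 and 0.66 ± 0.27 (limma adjusted p = 0.035 and 0.044), with overlapping groups. Rps14, Rpl4, Rpl11, Rpl38 and Rpl39 were not called, with -0.02 ± 0.25, -0.54 ± 0.27, -0.58 ± 0.26, -0.14 ± 0.16 and 0.03 ± 0.14.

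Leaving out 1 library ended the call of 8 of these 27 genes, Rps26, Rplp2, Rpl6, Rpl39l, Rpl7l1, Rps3, Rps4l and Rps19bp1. The number that rose was 8 without primordial replicate 1, 0 without primordial replicate 2 or 4 and 1 without any of the primary replicates. Only 6 of 20 genes fell with probe sets free of suffixes, and 42 fell with the columns as deposited.

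During growth from primary to large antral follicles 18 of 47 genes fell and 8 rose, beside 18.4% and 18.6% of all 14195 genes tested (limma on the 16 arrays of the growing stages). The median change was -0.08, against 0.02 over all genes. In the small subunit 12 of 22 genes fell and 3 rose, with a median of -0.35. In the large subunit 6 of 24 fell and 5 rose, with a median of 0.05. Whether the subunits differ was not tested. Of 85 tested 430A probe sets 26 fell and 12 rose, beside 22.3% and 20.9% of all, and of 5 on 430B 2 fell and 0 rose, beside 8.17% and 7.74%, with 2 at an unadjusted p under 0.05. The number that rose was 5 without primary replicate 1 or large antral replicate 4. With the primordial arrays in the same fit, which adds their spread, 10 fell and 0 rose.

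**Figure D4:**
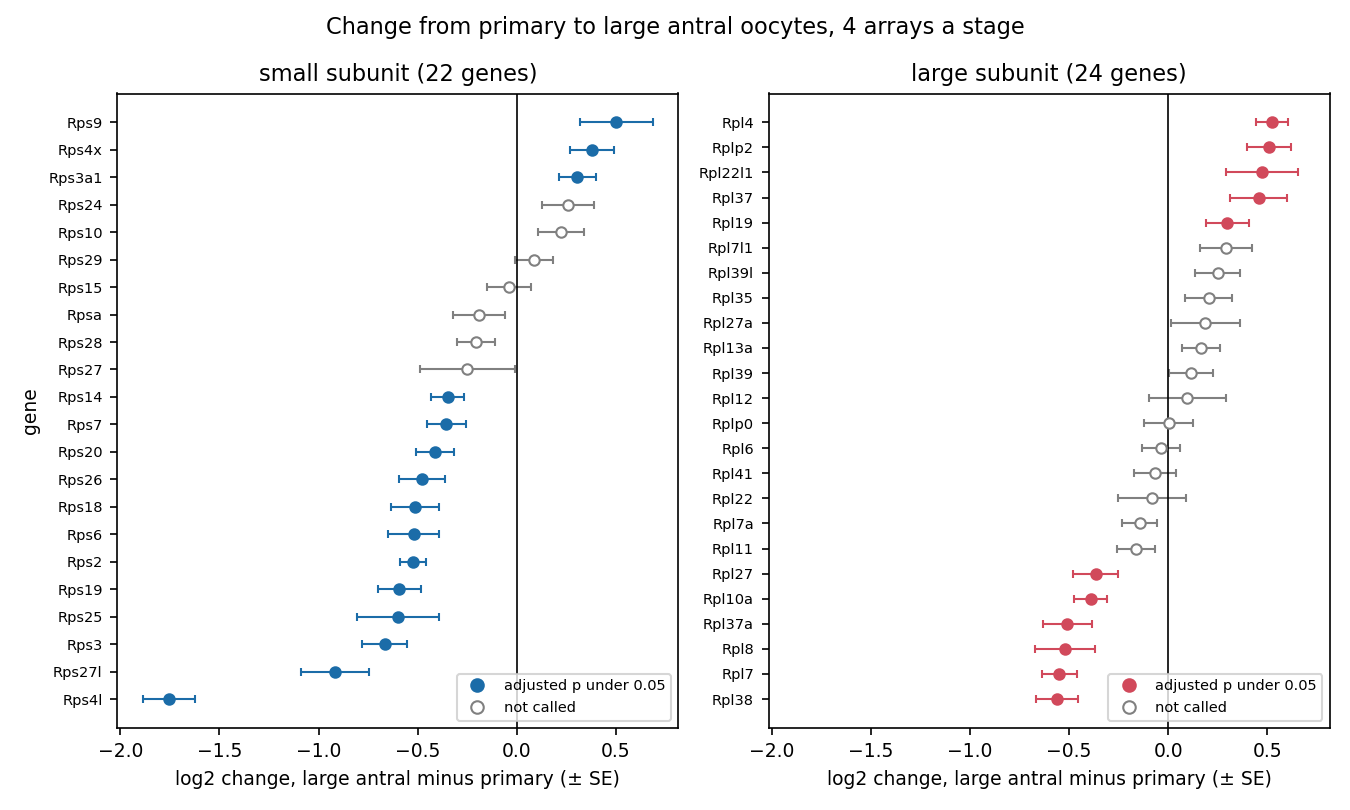
Log2 change from primary to large antral oocytes with its SE (x axis) for 22 small-subunit and 24 large-subunit genes (y axis), 4 arrays a stage, sorted by size. Filled symbols passed an adjusted p of 0.05 in limma. Of the small subunit 12 filled symbols lie left of 0 and 3 right of it, and of the large subunit 6 and 5. Rps4l lies farthest left at -1.76.

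Several small-subunit genes fell without overlap. Rps3, which lines the mRNA entrance and also acts in DNA repair, had 7151.2, 7117.5, 6099.7 and 5682.3 in the primary arrays and 3838.4, 4062.2, 3988.5 and 4388.7 in the large antral arrays. The groups did not overlap, and Rps3 fell by 0.67 ± 0.11 (limma adjusted p = 5.8e-05). Rps19 had 1107.3, 1126.6, 1028.9 and 1103 at the primary and 849.4, 698.2, 644.3 and 671.2 at the large antral stage. All large antral arrays were lower, and Rps19 fell by 0.59 ± 0.11 (limma adjusted p = 0.00016). Rps2 had 12112 to 13830.9 against 8295.4 to 9555.7 and fell by 0.52 ± 0.07 (limma adjusted p = 1.9e-06). Rps6 had 258.1 to 316 against 170.8 to 209.4 and fell by 0.52 ± 0.13 (limma adjusted p = 0.0023).

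Rps25, which some viral RNAs need for internal initiation, had 325.5, 244.3, 158.8 and 167.4 against 118.5, 105.7, 181.1 and 127.9. The groups overlapped, and its fall of 0.60 ± 0.21 (limma adjusted p = 0.025) was not called without primary replicate 1 or 2 or large antral replicate 1 or 2 (adjusted p from 0.06 to 0.11). Rps26, which contacts mRNA upstream of the start codon, fell by 0.48 ± 0.12, Rps20 by 0.41 ± 0.10 and Rps14 by 0.35 ± 0.08 (limma adjusted p = 0.0022, 0.0015 and 0.0019). A further probe set of Rps20 gave 0.01 ± 0.15 (limma adjusted p = 0.99). Rps18 fell by 0.51 ± 0.12 (limma adjusted p = 0.0015). Rps7 fell by 0.36 ± 0.10 (limma adjusted p = 0.006), and its other tested probe set gave 0.30 ± 0.15 (limma adjusted p = 0.1). Rpsa and Rps28 were not called, with -0.19 ± 0.13 and -0.21 ± 0.10.

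Among small-subunit genes that rose, Rps4x had 6242.9, 5329.3, 5314.9 and 7184.1 in the primary and 8132.4, 7602.3, 7634.1 and 7689.1 in the large antral arrays. It rose by 0.38 ± 0.11 (limma adjusted p = 0.0085), with no overlap. Rps3a1 rose by 0.31 ± 0.09 (limma adjusted p = 0.012), also with no overlap. Rps9 was called as a rise of 0.50 ± 0.19 (limma adjusted p = 0.034) with overlapping groups. That call was lost without primary replicate 1, 3 or 4 or large antral replicate 2 or 4 (adjusted p from 0.065 to 0.13), and the other tested probe set of Rps9 gave -0.06.

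In the large subunit Rpl4, a protein that reaches into the exit tunnel for the new chain, had 4264.3, 4835.3, 4601.3 and 4916.1 in the primary and 6327.6, 6886.3, 6710.4 and 6823.9 in the large antral arrays. All large antral arrays were higher, and Rpl4 rose by 0.52 ± 0.08 (limma adjusted p = 2.2e-05). Rplp2, an acidic protein of the stalk, had 3209.6, 3530.9, 3471.6 and 3398.4 against 5627.4, 4507.3, 4074.7 and 5324.2 and rose by 0.51 ± 0.11 (limma adjusted p = 0.00078). Rplp0 of the same stalk gave 0.00 ± 0.12 (limma adjusted p = 0.99). Rpl37 rose by 0.46 ± 0.15 (limma adjusted p = 0.015), with 1122.5 to 1494 against 1519.5 to 1856.

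Rpl38, needed for the translation of Hox mRNAs in the mouse embryo, had 5306.9, 6311.4, 5496.7 and 6098.3 in the primary and 4669.6, 3442.8, 3451 and 4191.8 in the large antral arrays. It fell by 0.56 ± 0.11 (limma adjusted p = 0.0002), with no overlap. Rpl7 fell by 0.55 ± 0.09, Rpl8 by 0.52 ± 0.15, Rpl37a by 0.51 ± 0.13 and Rpl10a by 0.39 ± 0.09 (limma adjusted p = 3.3e-05, 0.0085, 0.0023 and 0.00077). Rpl19 was called as a rise of 0.30 ± 0.11 (limma adjusted p = 0.03), a call lost without primary replicate 1 or 3 or large antral replicate 1 or 4 (adjusted p from 0.1 to 0.11). Rpl27 was called in both directions: its brightest probe set fell by 0.37 ± 0.11 (limma adjusted p = 0.013), a call lost without large antral replicate 3 (adjusted p = 0.062), and its other probe sets rose by 0.52 ± 0.14 and 0.48 ± 0.13 (limma adjusted p = 0.0049 and 0.0042). Rpl11, which binds Mdm2 when ribosome assembly is disturbed, Rpl13a, Rpl22, Rpl39 and Rpl41 were not called, with values between -0.16 and 0.16. A dimmer probe set of Rpl13a was called as a rise of 0.45 ± 0.13 (limma adjusted p = 0.0096), with all large antral arrays above the primary ones.

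Of the 3 steps between growing stages, that from primary to secondary oocytes had the most genes that fell. Of 47 genes 10 fell and 3 rose, beside 7.21% and 10.9% of all genes, with a median of -0.16 against 0.01. The 3 that rose were Rps19bp1, Rpl7l1 and Rpl4. In the small subunit 8 of 22 fell and 0 rose, with 8 in either direction at an unadjusted p under 0.05, and in the large subunit 2 fell and 2 rose of 24. Rps19 fell by 0.57 ± 0.11 (limma adjusted p = 0.00077), from 1028.9 to 1126.6 in the primary arrays to 697.5, 697.6, 753.7 and 738.1 in the secondary arrays. Rpl38 fell by 0.48 ± 0.11 (limma adjusted p = 0.003), from at least 5306.9 to at most 4471.2. Rpl4 rose by 0.33 ± 0.08 (limma adjusted p = 0.0063), with 6716, 5389.2, 5597.4 and 5735 in the secondary arrays, all above the primary ones. Rps20 and Rps28 fell by 0.41 ± 0.10 and 0.36 ± 0.10. Without primary replicate 2 the number that fell was 6, and without secondary replicate 2 the number that rose was 5. The falls of Rps2, Rps14, Rps18 and Rps26 in this step were each lost on leaving out 1 of at least 2 libraries. With the primordial arrays in the same fit 0 fell and 1 rose.

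From secondary to small antral oocytes 3 of 47 genes fell and 0 rose, beside 9.75% and 6.35% of all genes, and 9 had an unadjusted p under 0.05. Rps3 fell by 0.59 ± 0.11 (limma adjusted p = 0.00073), from 5019.1 to 6281.5 in the secondary arrays to 4869.3, 3272.7, 3584.5 and 3436 in the small antral arrays, with no overlap. The other genes that fell were Rps4l and Rps19bp1. The number that fell was 5 without small antral replicate 1, and 1 gene rose without secondary replicate 1 or 4 or small antral replicate 3.

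From small to large antral oocytes 2 genes fell and 1 rose, beside 5.35% and 3.4% of all genes. Rplp2 rose by 0.57 ± 0.11 (limma adjusted p = 0.0025), from 2609 to 3714.9 in the small antral arrays to 4074.7 to 5627.4 in the large antral arrays. Rps2 fell by 0.33 ± 0.07 (limma adjusted p = 0.0032), a call lost after quantile normalization (adjusted p = 0.11). Rpl7 fell by 0.29 ± 0.09 (limma adjusted p = 0.034), a call lost without small antral replicate 1, 2 or 4 or large antral replicate 2 or 4 (adjusted p from 0.051 to 0.11). Leaving out 1 library gave 1 to 4 genes that fell, with 4 without small antral replicate 3 and 1 without small antral replicate 1, 2 or 4 or large antral replicate 2 or 4. It gave 2 that rose without small antral replicate 1 and 3 without small antral replicate 2 or large antral replicate 2. Neighbouring steps share the arrays of a stage, so their values are not independent of each other.

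Some ribosomal proteins have a further gene copy, and 4 such pairs are plotted by stage. Rps4l had 1884.8 to 2056.8 in the primary arrays, 1350.5, 1160.8, 965.6 and 1026.4 in the secondary, 580.4, 421.9, 360.4 and 541.8 in the small antral and 632.5, 559.2, 563.8 and 528.5 in the large antral arrays. Each of the steps to small antral was without overlap. Rps4l fell by 0.82 ± 0.13 to the secondary stage (limma adjusted p = 0.00015), by 1.20 ± 0.13 to the small antral stage (2e-06) and by 1.76 ± 0.13 from primary to large antral (1.4e-09). Rps4x, the gene it resembles, rose from primary to large antral, as given above.

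Rps27l, a copy of Rps27 that p53 induces, had 2114.8, 3875.1, 3522.8 and 3187.8 in the primary and 1856.7, 1704.1, 1375.1 and 1593 in the large antral arrays. It fell by 0.92 ± 0.17 (limma adjusted p = 0.00021), and its other probe sets by 0.81 ± 0.11 and 0.85 ± 0.12. Rps27 had 214.6 to 374.4 against 193.9 to 240 and gave -0.25 ± 0.24 (limma adjusted p = 0.44). Rpl22l1, the copy of Rpl22, was called as a rise of 0.47 ± 0.18 (limma adjusted p = 0.041) with 472.1 to 781.1 against 587.1 to 1027.5. That call was lost without primary replicate 1, 2 or 3 or large antral replicate 1, 3 or 4 (adjusted p from 0.061 to 0.15). Rpl22 itself gave -0.08 ± 0.17 on 430A, and its 430B probe set fell by 0.46 ± 0.08 (limma adjusted p = 0.00037), from 14505.1 to 17047 to 10267.5 to 12011.

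Rpl39l, the copy of Rpl39 best known from male germ cells, had 2552.9 to 3558.9 at the primary and 3312.2 to 4018.1 at the large antral stage and gave 0.25 ± 0.11 (limma adjusted p = 0.083), and Rpl39 gave 0.12 ± 0.11 (0.45). Rpl7l1, a copy of Rpl7 that takes part in ribosome assembly, had 427, 329.3, 434 and 509.2 in the primary and 684.7, 519.2, 561.7 and 654.9 in the secondary arrays. It rose by 0.49 ± 0.13 (limma adjusted p = 0.011), and a second probe set rose by 0.54 ± 0.11 and then fell by 0.50 ± 0.11 to the small antral stage. Rpl3l, the copy of Rpl3 used in muscle, stayed at or below 85.6 in the primordial, primary and large antral arrays and was not tested, nor were Rpl14, with at most 226.3 in those arrays, and Rps16. Whether a gene and its copy differ in change was not tested.

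**Figure D5:**
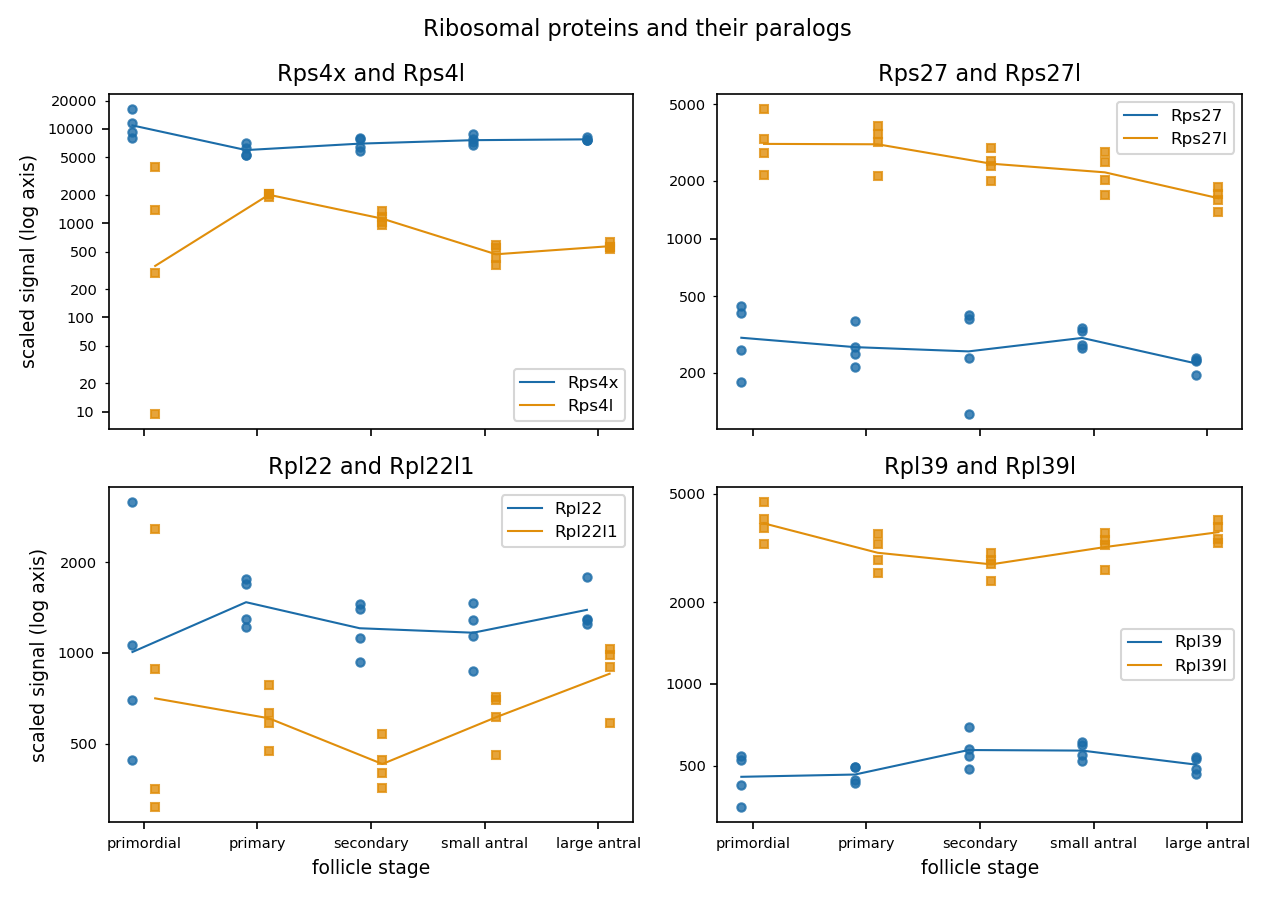
Scaled signal on a log axis (y) of 4 ribosomal protein genes in blue and their copies in orange by follicle stage (x), with a point per array and a line through the geometric means of 4 arrays. The heights of the colours are not comparable, since they come from different probe sets. Rps4l goes from 1884.8 to 2056.8 at the primary stage to 528.5 to 632.5 at the large antral stage, and Rps4x rises over the same span.

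Rps3 was also read on 430B by 1455600_at, a probe set singled out after its values were seen. It read 3906, 2633.4, 3142.5 and 3299.9 in the primordial, 350.3, 480.4, 300 and 355.7 in the primary, 54.2, 56.6, 102.3 and 152.1 in the secondary, and 27 to 78.4 in the antral arrays. It fell by 3.03 ± 0.33 from primordial to primary (limma adjusted p = 1.4e-07) and fell by 2.54 ± 0.36 from primary to large antral (1.9e-05). The 430A probe set of Rps3 fell by 0.49 ± 0.17 and 0.67 ± 0.11 in the same comparisons, and the difference between the probe sets was not tested.

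Rps19bp1, read on 430B, had 1890.6, 996.5, 1316.9 and 833.3 in the primordial, 1842.7, 1898.7, 1836.3 and 1760.3 in the primary and 3564.9, 2941.3, 2955.9 and 3042.9 in the secondary arrays. It rose by 0.60 ± 0.18 from primordial to primary (limma adjusted p = 0.019), a call lost without primordial replicate 2 or 4 (adjusted p = 0.063 and 0.084). It rose by 0.76 ± 0.12 to the secondary stage (limma adjusted p = 0.00023), without overlap. It then fell by 0.48 ± 0.12 to the small antral stage (limma adjusted p = 0.016). That fall was not called without secondary replicate 1 or without small antral replicate 3 (adjusted p = 0.066 and 0.065). Without the 3 small antral arrays whose protocol text gives the secondary age, the change was -0.19. It then rests on small antral replicate 1 alone.

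Genes that work with ribosomal proteins were counted beside them, from lists drawn up with earlier results known. Of 14 tested genes for translation factors and other mRNAs with pyrimidine tracts, 5 fell and 2 rose from primordial to primary, with a median of -0.18, where 18.3% of all genes fell and 23.8% rose. Pabpc1, the poly(A) binding protein, fell by 1.98 ± 0.19, Tpt1 by 1.75 ± 0.14 and the elongation factor subunit Eef1b2 by 1.68 ± 0.20 (limma adjusted p = 1.7e-08, 2.3e-09 and 4.6e-07). The RNA-binding protein gene Hnrnpa1 rose by 1.92 ± 0.13 and the elongation factor subunit Eef1d by 1.14 ± 0.20 (limma adjusted p = 1.6e-10 and 5.8e-05). From primary to large antral 4 fell and 5 rose, where 18.4% and 18.6% of all genes did. The elongation factors Eef1a1 and Eef2 fell by 0.75 ± 0.06 and 0.64 ± 0.16 (limma adjusted p = 3.7e-09 and 0.0024), and Hnrnpa1 and the initiation factor Eif4b rose by 0.89 ± 0.10 and 0.53 ± 0.12 (6.2e-07 and 0.0014).

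Of 34 ribosome assembly genes 7 fell and 12 rose from primordial to primary, with a median of 0.31, beside the same 18.3% and 23.8% of all genes. Among them Nob1, which cuts the last precursor of the small subunit's RNA, rose by 2.11 ± 0.22 (limma adjusted p = 1.2e-07). From primary to large antral 11 of 33 fell and 7 rose, with a median of -0.05, beside 18.4% and 18.6% of all genes. There Nob1 fell by 1.76 ± 0.14, Fbl, the methyltransferase of the nucleolus, by 1.51 ± 0.15 and Rrs1 by 1.89 ± 0.27 (limma adjusted p = 5.4e-09, 7.1e-08 and 7.9e-06), and Ltv1 and Eif6 rose by 0.89 ± 0.15 and 0.77 ± 0.07 (4.7e-05 and 1.8e-08). Of 75 mitochondrial ribosomal protein genes 20 fell and 21 rose from primordial to primary, with a median of 0.22, and 13 of 74 fell and 20 rose from primary to large antral, with a median of 0.05, beside the same shares of all genes in each comparison. Of the 3 ribosomal genes whose symbols fall outside the rule, Fau alone had a probe set with a single symbol, and it gave -0.12 ± 0.34 and 0.25 in these comparisons.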

How the data were processed

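Values were the intensity per probe set that the authors deposited, a linear array signal on Affymetrix 430A and 430B arrays, made with MAS5 per the submitters' processing notes, whose version is not given in the sources used here. Columns of 430A had deposited trimmed means of 151.1 to 154.5, those of 430B of 144.4 to 147.6. Primordial arrays 2 to 4 were unmixed as described above, leaving out 100 430A probe sets with values off the common decimal grid, none of them a member. Arrays were brought to a common 2% trimmed mean of 500, and log2 values were computed after an offset of 32, which understates changes of low signals. Probe sets with at least 4 arrays at 100 were fitted per array type with limma 3.58.1 in R 4.3.3 (lmFit, eBayes with trend, two-sided). A call was a Benjamini-Hochberg adjusted p under 0.05 over the array type. The fit of primordial to primary used 20 arrays, and the other comparisons the 16 arrays of the growing stages, with no block. Each fit held a common spread per probe set over all its stages, which understates the wider spread of the primordial arrays.

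A gene was represented by 1 probe set, 430A before 430B and then the highest mean log2 signal. Named were up to 6 called genes with the largest rises and falls for primordial to primary and primary to large antral, up to 3 for other steps, and a fixed list of ribosomal proteins and copies. Where probe sets of a gene were called in opposite directions, both are given. Members, lists and tests were chosen with earlier results of these data known. The labels state no pairing by replicate number. Correlations of deviations between same-numbered arrays of different stages lay between -0.09 and 0.15 on 430A, and between other-numbered arrays from -0.19 to 0.18. Such values cannot settle whether same-numbered samples were paired. The number of arrays limits the precision. The limma procedure was run on simulated data for primary to large antral on 430A alone, with the same spread at every stage. The fit with the primordial arrays was not simulated. Promoter sequences came from RefSeq (GRCm38.p6). No protein sequences were used here.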

Additional observations from a re-analysis of the deposited data

Results flagged for a closer look

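Within each stage the 4 arrays of the 47 genes were screened for 1 array far from the other 3 (its gap to the nearest other over the whole range, by Dixon's 95% critical value). Of 235 groups 9 stood out, where chance alone picks about 1 in 20, and no cause was tested. At the secondary stage Rpl7 read 4394.3 in replicate 3 (others 3878.2 to 3946.6), Rpl10a 4591 in replicate 4 (others 3861 to 3934.8), Rpl27a 111.3 in replicate 2 (others 174.3 to 176.6) and Rps19bp1 3564.9 in replicate 1 (others 2941.3 to 3042.9). At the large antral stage Rps4x read 8132.4 in replicate 1 (others 7602.3 to 7689.1), Rpl22 1792.6 in replicate 4 (others 1245.9 to 1300.7) and Rpl12 244.7 in replicate 4 (others 114.4 to 129.6). Rpl6 read 3149.3 in primary replicate 1 (others 4168.3 to 4371.5). Rpl37 read 2291.9 in primordial replicate 1 (others 913.4 to 1010.9).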

How the results depend on the processing

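Counts of genes that rose or fell moved by over 1.5 times as follows, and the cause was not tested. From primordial to primary the number that rose was 0 as deposited, after quantile normalization, with only both stages in the fit and with arrays 1 and 3 alone, 1 with no low-signal filter, 5 with array weights and 6 with the dimmest tested probe set. The number that fell was 42 as deposited and 6 of 20 genes with probe sets free of suffixes. The all-20-array fit gave 1 rise and 0 falls from primary to secondary, 1 fall from secondary to small antral, 0 rises and 0 falls from small to large antral, and 0 rises and 10 falls from primary to large antral. Suffix-free probe sets gave 1 fall from primary to secondary, 0 rises and 0 falls from small to large antral, and 1 rise and 4 falls from primary to large antral. Quantile normalization gave 1 rise and 5 falls from secondary to small antral and 3 rises and 1 fall from small to large antral. The dimmest tested probe set gave 5 falls from secondary to small antral and 5 rises from small to large antral. From small to large antral 1 gene fell with arrays scaled to the same median and with only both stages in the fit. Leaving out 1 library gave, in the order of the 4 steps and then primary to large antral, 0 to 8, 3 to 5, 0 to 1, 1 to 3 and 5 to 9 rises and 20 to 30, 6 to 11, 2 to 5, 1 to 4 and 17 to 19 falls. With the replicate number as a block the counts were 2 and 25, 3 and 8, 0 and 3, 1 and 2, and 8 and 18 rises and falls in the same order, all within 1.5 times of the fit without the block. Among genes called in the fit as reported, the sign reversed for Rps4l from primordial to primary (-0.35 as deposited, -0.23 with arrays 1 and 3 alone) and, with the dimmest probe set, for Rps18 (0.069), Rpl37a (0.74), Rps9 (1.86), Rpl7l1 (0.67) and Rps7 (0.13) from primordial to primary, Rpl7 from small to large antral (0.04), and Rps9 (-0.062), Rpl27 (0.52) and Rps7 (0.30) from primary to large antral. The subunit medians per stage moved by less than 1 SD of that stage's 4 arrays under both other scalings. At the primordial stage this SD was 0.88 for the small and 1.09 for the large subunit. Only a large shift would thus count as a move there.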
